A study of Homo sapiens with 10 samples.

Results

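The SPRR genes encode the small proline-rich proteins of squamous epithelium. They were chosen by name, as the 10 genes SPRR1A, SPRR1B, SPRR2A, SPRR2B, SPRR2D, SPRR2E, SPRR2F, SPRR2G, SPRR3 and SPRR4, out of 58735 genes counted. Each had at least 1 read in some library, and 7 had enough reads to enter at least 1 test between groups.

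SPRR proteins are precursors of the cornified envelope, the protein shell that replaces the plasma membrane of a squamous cell at the end of its differentiation. Transglutaminases cross-link them to involucrin, loricrin and other envelope proteins through glutamine and lysine residues, and the proline-rich repeats between the ends act as flexible bridges. The genes lie side by side in the epidermal differentiation complex, a cluster of genes for late squamous differentiation and barrier formation.

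RNA came from A253, an established human cell line derived from a salivary gland squamous cell carcinoma (SG-SCC). The control cells had received Cas9 and a guide RNA against tomato, the gene of a fluorescent protein, and the other groups were the DUSP1 clones Cl1 and Cl10. Both clones carried a heterozygous deletion of exon 2 of DUSP1, a phosphatase that inactivates the MAP kinases ERK, JNK and p38, and the study selected them for lack of DUSP1 protein. Each clone is the progeny of 1 cell, so an effect of the deletion and a property of the clone cannot be told apart. There were 2 libraries per group, with 47016495 to 70986593 counted reads. The study states in general terms that biological replicates were used, but the labels do not say whether the libraries of a group came from separate cultures. If they did not, p-values measure only technical spread between these libraries. The 4 libraries of a separate SOX2 experiment were not analysed here.

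The targeted gene was examined first. DUSP1 had 744.4 and 635.4 normalised counts in the control libraries, 304.0 and 353.7 in Cl1, and 495.2 and 415.2 in Cl10. Normalised counts are reads scaled to the same effective library size. DUSP1 mRNA was thus below the control in all 4 clone libraries, at a log2 fold change against control of -1.07 for Cl1 (adjusted p = 0.000291) and -0.59 for Cl10 (adjusted p = 0.0113, edgeR's quasi-likelihood test with Benjamini-Hochberg adjustment over all genes tested, used throughout). Reads were counted over the whole gene, so these values do not measure the loss of exon 2. Of the squamous basal markers, KRT5, KRT14, TP63, KRT6A, CDH1 and EPCAM summed to between 11230 and 13180 CPM (counts scaled to the effective library size, that is the total times its TMM factor) in every library, whereas 7 salivary acinar markers together stayed at or below 0.166 CPM.

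Reads from the SPRR genes were more abundant in both clones than in the control, and more in Cl10 than in Cl1. Summed over the 10 genes, the control held 1470 ± 212.8 normalised counts (mean ± SD, n = 2 here and below), Cl1 2724 ± 171.8 and Cl10 5038 ± 20.5. These sums stood at 1.85 times the control in Cl1 and 3.43 times in Cl10, and most of their reads belonged to SPRR1B. In bulk RNA, more cells of a type and more RNA per cell cannot be told apart.

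A gene was called higher when its adjusted p was under 0.05 and its log2 fold change above 1. In Cl1, 3 of the 10 genes were called higher (SPRR1A, SPRR3 and SPRR2E), against 4.27% of all genes tested. SPRR1B passed the p threshold without reaching that fold, SPRR4 and SPRR2D did not pass, and 4 genes had too few reads to enter the fit. In Cl10, 6 of the 10 were called higher (SPRR1A, SPRR1B, SPRR3, SPRR4, SPRR2D and SPRR2E), against 5.98% of all genes. SPRR2A did not pass and 3 genes were not fitted. In the direct comparison of Cl10 with Cl1, 4 of the 10 were called higher in Cl10 (SPRR3, SPRR4, SPRR2D and SPRR2E), against 4.47% of all genes. SPRR1A and SPRR1B passed the p threshold there below the required fold. No SPRR gene was called lower in any of the 3 comparisons, where 3.27%, 7.44% and 6.28% of all genes tested were. At such shares, none called lower among so few genes is no finding about them. SPRR3, SPRR2A, SPRR2D and SPRR2E had under 10 reads in at least 1 control library and could enter a fit with the control only with the help of the other libraries, so the counts among fitted genes describe these genes and carry no weight as a share. The plot of normalised counts by library shows all 10 genes.

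**Figure D1:**
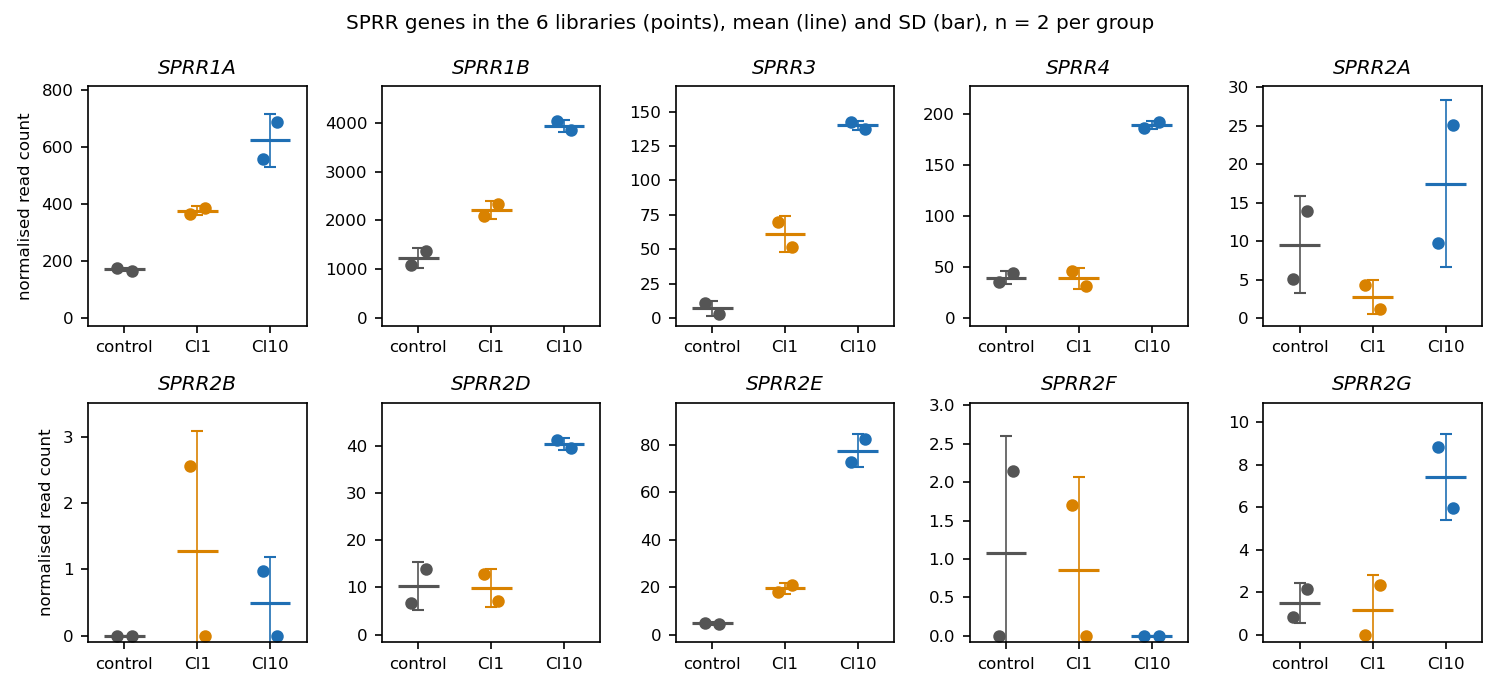
Normalised read counts (vertical axes, each from 0 and scaled to its gene) of the 10 SPRR genes in the control, Cl1 and Cl10; points are libraries, lines are means and bars are SDs, n = 2 per group. SPRR1A, SPRR1B, SPRR3 and SPRR2E step up from control to Cl1 to Cl10, SPRR4 and SPRR2D are high in Cl10 alone, and SPRR2B, SPRR2F and SPRR2G stay under 10 normalised counts.

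SPRR1B and SPRR1A encode the cornifins, envelope precursors of differentiating keratinocytes. SPRR1B (ENSG00000169469, chr1:153031203-153032900, plus strand, hg38) had 1079 and 1370 normalised counts in the control, 2082 and 2344 in Cl1, and 4030 and 3849 in Cl10. The 3 groups did not overlap. Its log2 fold change was 0.86 (SE 0.13, adjusted p = 0.00057) in Cl1, a 1.81-fold difference that is not called, and 1.69 (SE 0.12, adjusted p = 0.000134) in Cl10, a 3.23-fold rise. Between the clones SPRR1B was higher in Cl10 by 0.84 on the log2 scale (SE 0.07, adjusted p = 9.01e-07).

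SPRR1A (ENSG00000169474, chr1:152984081-152985814, plus strand) had 175.1 and 166.6 normalised counts in the control, 365.4 and 387.7 in Cl1, and 559 and 690.3 in Cl10. Its groups did not overlap either, and its Cl10 libraries lay farther apart than those of the other groups. SPRR1A rose 2.20-fold in Cl1 (log2 fold change 1.14, SE 0.16, adjusted p = 0.000289) and 3.66-fold in Cl10 (log2 fold change 1.87, SE 0.15, adjusted p = 0.000187). Cl10 exceeded Cl1 by 0.73 (SE 0.12, adjusted p = 0.000299). When each gene was set against the median change of its 50 nearest tested genes on the chromosome, the value of SPRR1A in Cl1 fell to 0.76 (adjusted p = 0.00448) and the call was lost.

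SPRR1B supplied most SPRR RNA also per length of annotated exon. Of the CPM per kilobase of annotated exon summed over the 10 genes, SPRR1B held between 79.6% and 86.0% in the 6 libraries, and SPRR1A and SPRR1B together held 95.8% to 97.4% in the control and Cl1 libraries. In the Cl10 libraries they held 93.4% and 93.0%, below each of the other 4. The ratio of SPRR1B to SPRR1A per kilobase was 6.59 and 8.79 in the control, 6.10 and 6.47 in Cl1, and 7.71 and 5.96 in Cl10, with groups that overlapped.

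SPRR3, also known as esophagin, is the SPRR protein of esophageal and oral mucosa. The gene (ENSG00000163209, chr1:153001747-153003856, plus strand) had 13 and 3 reads in the control libraries, which is 11 and 3.23 normalised counts. It had 70.0 and 51.5 normalised counts in Cl1, and 142.5 and 137.6 in Cl10. Every Cl1 library was above every control library and below every Cl10 library. SPRR3 rose 8.09-fold in Cl1 (log2 fold change 3.02, SE 0.46, adjusted p = 0.00055) and 18.4-fold in Cl10 (4.20, SE 0.38, adjusted p = 0.000298), and Cl10 exceeded Cl1 by 1.19 (SE 0.22, adjusted p = 0.000663). The size of both rises depended on which control library was used. With control replicate 1 left out, the log2 fold changes were 4.20 in Cl1 and 5.38 in Cl10, and with control replicate 2 left out they were 2.47 and 3.65. Without Cl1 replicate 2, the difference between the clones was 0.99 and was no longer called.

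SPRR4, an SPRR gene described as induced in skin by ultraviolet light, had another pattern. The gene (ENSG00000184148, chr1:152970648-152972574, plus strand) had 35.5 and 44.1 normalised counts in the control and 46.1 and 31.6 in Cl1, and these groups overlapped. In Cl10 it had 186.7 and 192.6. SPRR4 rose 4.80-fold in Cl10 (log2 fold change 2.26, SE 0.20, adjusted p = 0.000291). Its value in Cl1 was -0.01 (SE 0.33, adjusted p = 0.992), with a sign that turned when the scaling factors were changed or a library was left out. The direct difference between the clones was 2.26 (SE 0.23, adjusted p = 4.97e-06).

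The SPRR2 genes encode small envelope precursors of keratinocytes that are rich in cysteine as well as proline. Their reads were few, and the 6 genes together had 21 and 34 reads in the control, 46 and 27 in Cl1, and 136 and 128 in Cl10. The summed normalised counts were 27.2 ± 13.3, 35.5 ± 5.42 and 143.3 ± 13.8, so that Cl1 overlapped the control and Cl10 was above all other libraries. The sum in Cl10 was 5.28 times that of the control.

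SPRR2E (ENSG00000203785, chr1:153093135-153106184, minus strand) had 5.08 and 4.30 normalised counts in the control, 17.9 and 21.1 in Cl1, and 72.7 and 82.6 in Cl10. The control values came from 6 and 4 reads. SPRR2E rose 4.03-fold in Cl1 (log2 fold change 2.01, SE 0.54, adjusted p = 0.0154) and 16.0-fold in Cl10 (4.0, SE 0.35, adjusted p = 0.000254). Cl10 exceeded Cl1 by 2.0 (SE 0.30, adjusted p = 0.000132). The call in Cl1 was lost in 3 of the 4 fits that left out a library. The adjusted p was 0.0441 without control replicate 1, where the call held, 0.0592 without control replicate 2, 0.0828 without Cl1 replicate 1 and 0.110 without Cl1 replicate 2, with log2 fold changes of 2.14, 1.91, 2.13 and 1.91.

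SPRR2D (ENSG00000163216, chr1:153039732-153041931, minus strand) had 6.77 and 14.0 normalised counts in the control, 12.8 and 7.03 in Cl1, and 41.3 and 39.5 in Cl10. Control and Cl1 overlapped, and Cl10 was above both. Its log2 fold change was 0.02 in Cl1 (SE 0.58, adjusted p = 0.984), a value too imprecise to separate a small rise from a small fall. SPRR2D rose 3.99-fold in Cl10 (log2 fold change 2.0, SE 0.42, adjusted p = 0.00826), and Cl10 exceeded Cl1 by 1.97 (SE 0.41, adjusted p = 0.0016).

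The other SPRR2 genes were at the limit of detection. SPRR2A (ENSG00000241794, chr1:153056120-153057512, minus strand) had 6 and 13 reads in the control, 5 and 1 in Cl1, and 10 and 21 in Cl10. Its Cl1 libraries were below both control libraries, without enough reads for a test. It entered only the fit of Cl10 against control, at 0.89 (SE 0.67, adjusted p = 0.312). SPRR2G (ENSG00000159516, chr1:153149582-153150890, minus strand) had 1 and 2 reads in the control, 0 and 2 in Cl1, and 9 and 5 in Cl10. Its Cl10 libraries were above all others, without enough reads for a test. SPRR2B (ENSG00000196805, chr1:153070226-153071611, minus strand) had no read in the control, 3 and 0 in Cl1, and 1 and 0 in Cl10. SPRR2F (ENSG00000244094, chr1:153112121-153113516, minus strand) had 0 and 2 reads in the control, 2 and 0 in Cl1, and none in Cl10. A count of 0 allows up to 3 reads per library, so a difference between groups in SPRR2B or SPRR2F was not detectable at this depth.

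**Figure D2:**
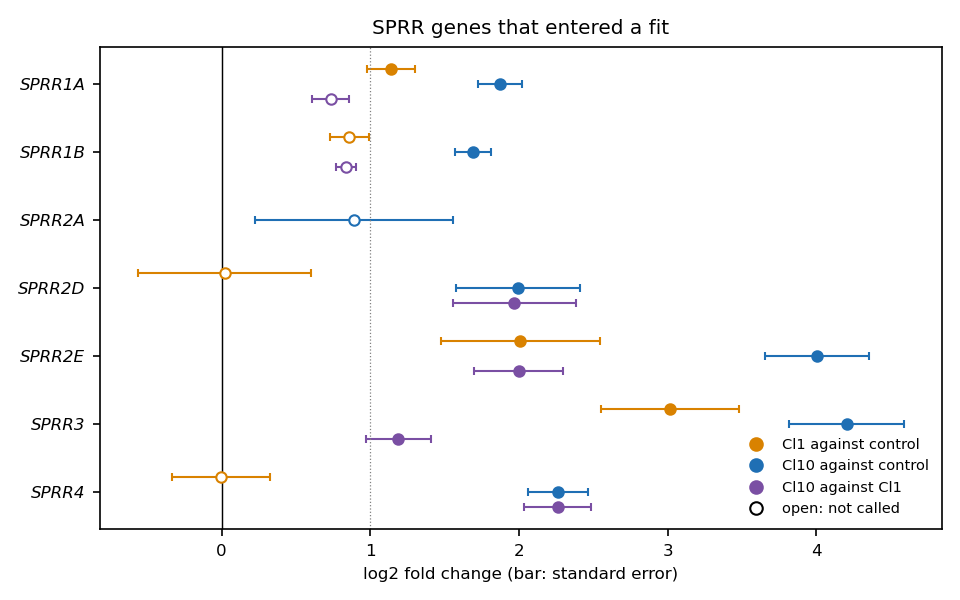
Log2 fold changes (horizontal axis) of the 7 SPRR genes that entered a fit, with standard errors as bars, for Cl1 against control, Cl10 against control and Cl10 against Cl1. Filled points were called (adjusted p under 0.05 and log2 fold change above 1, dotted line), and open points were not. SPRR4 and SPRR2D lie near 0 in Cl1 and near 2 in both comparisons of Cl10, whereas SPRR3 is at 3.02 in Cl1 and 4.20 in Cl10.

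Per kilobase of exon, the order of the genes changed between groups below the first ranks. SPRR1B led in each group, at 34.4 CPM per kilobase in the control, 62.1 in Cl1 and 111 in Cl10, followed by SPRR1A at 4.49, 9.88 and 16.4. SPRR4 came next in the control at 0.921 and in Cl10 at 4.39, and in Cl1 its range of 0.732 to 1.07 overlapped that of SPRR3, 0.621 to 0.844. SPRR3 had a range of 0.0389 to 0.133 in the control, which overlapped those of SPRR2A, SPRR2D and SPRR2E. In Cl10, SPRR2E (1.72 to 1.95) and SPRR3 (1.66 to 1.72) were adjacent and nearly touched, above SPRR2D (0.652 to 0.682). The divisor was all annotated exon bases of a gene, 1441 for SPRR3 and 1052 for SPRR2D. The transcripts examined below have 900 and 677 bases for these genes, so the ranks of SPRR3 and SPRR2D beside SPRR4, SPRR2A and SPRR2E depend on the length used. SPRR2A and SPRR2D were not separated in the control (0.130 to 0.359 and 0.112 to 0.231).

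The near-identity of the SPRR2 genes limits how far their reads can be assigned. SPRR2D and SPRR2E, the SPRR2 genes with the most reads in Cl10, have coding sequences of 216 bases without the stop codon, in a single exon, that differ at 3 bases (98.6% identity). They are printed here for that reason, on the coding strand and with the differing bases in capitals, from GENCODE v44 on hg38. That of SPRR2D lies at chr1:153040131-153040346 and that of SPRR2E at chr1:153093536-153093751, both on the minus strand.
SPRR2D: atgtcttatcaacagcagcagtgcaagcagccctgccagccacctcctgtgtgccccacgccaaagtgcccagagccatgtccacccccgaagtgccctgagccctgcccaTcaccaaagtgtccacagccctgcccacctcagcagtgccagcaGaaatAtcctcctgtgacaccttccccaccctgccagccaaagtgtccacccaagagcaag
SPRR2E: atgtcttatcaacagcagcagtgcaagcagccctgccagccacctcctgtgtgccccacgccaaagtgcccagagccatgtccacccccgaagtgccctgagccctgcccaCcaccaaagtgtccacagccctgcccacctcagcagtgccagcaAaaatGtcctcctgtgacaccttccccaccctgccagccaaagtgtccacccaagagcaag
In these sequences 16.7% of the codons of SPRR2D and 18.1% of those of SPRR2E are for cysteine, and 37.5% and 38.9% are for proline. Coding sequences of SPRR2A and SPRR2B were 99.5% identical, and those of SPRR1A and SPRR1B 96.3%. SPRR2G was the most distant SPRR2 gene, at 84.9% to 86.3% identity with the others.

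Windows of the length of a read were compared between transcripts to see which reads could come from more than 1 gene. Of the 150-base windows of each gene's transcript, 12.3% in SPRR2A, 12.3% in SPRR2B and 4.15% in SPRR2E also occurred in another gene, and none did in the other 7 genes. For 50-base windows the share was 34.4% in SPRR2A, 33.8% in SPRR2D, 32.4% in SPRR2B and 25.4% in SPRR2E. It was 18.4% in SPRR2F, 8.25% in SPRR1B, 7.96% in SPRR2G and 7.85% in SPRR1A, whereas SPRR3 and SPRR4 shared no window of either length. The sources used here name different counting tools and do not state how multi-mapping reads were handled. Single SPRR2 values, those of SPRR2A, SPRR2B and SPRR2E most of all, remain uncertain. Shared windows of these lengths do not touch the values of SPRR3 and SPRR4.

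**Figure D3:**
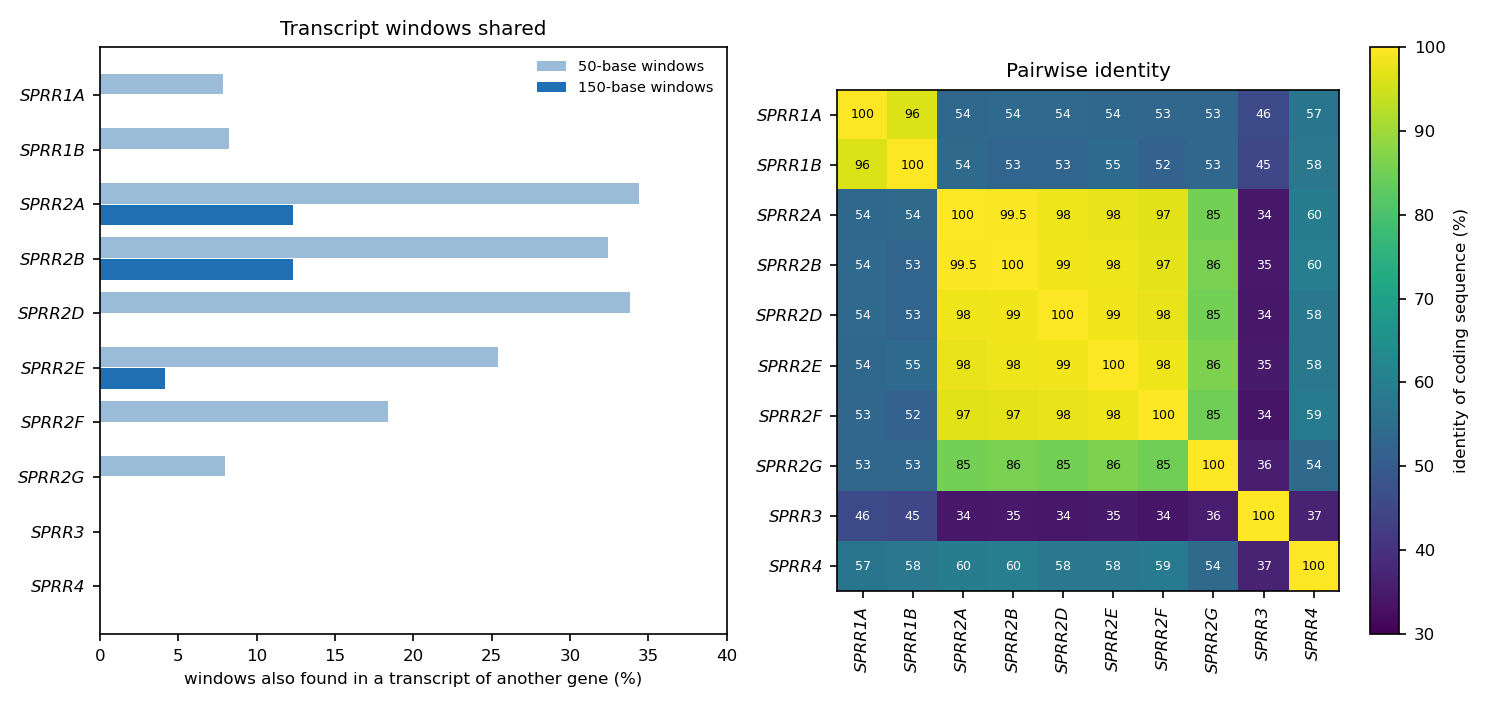
Left, percentage of transcript windows of each SPRR gene (horizontal axis) that also occur in a transcript of another gene, for windows of 50 and 150 bases. Right, pairwise identity of coding sequences in percent (colour and printed value). SPRR2A, SPRR2B, SPRR2D, SPRR2E and SPRR2F form a block of high identity, and SPRR3 and SPRR4 share no window.

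The genes that share no window of either length also differ in composition. All 10 transcripts have 2 exons. The coding sequence of SPRR3 has 169 codons, 22.5% of them for proline, and matches itself best when shifted by 24 bases, that is 8 codons, at which 63.6% of bases are equal. SPRR4 has 79 codons, of which 29.1% are for glutamine, a substrate residue of transglutaminases, and 16.5% for proline, the lowest proline share of the 10. In SPRR2G, with the highest, 39.7% of codons are for proline.

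Promoters were searched for letters of sites known from SPRR regulation, where JUN and FOS proteins bind as the AP-1 dimer and ETS, KLF and Sp factors bind nearby. Windows of 250 bases before the start were taken from a set of RefSeq promoters (GRCh38.p14) that held 8 of the 10 genes. SPRR2D and SPRR2E were not in the set used here. The AP-1 letters TGANTCA, searched on both strands like all others, were present in 6 of the 8 windows and in 6.57% of 35116 promoters of all genes. The TATA letters TATAAA were present in 7 of the 8 and in 10.7% of all promoters. The windows of the 4 genes with the most reads are printed below on the coding strand, because SPRR1A, SPRR1B and SPRR3 were higher in both clones and SPRR4 in Cl10. Capitals mark AP-1 and TATA matches. They lie at chr1:152983831-152984080 (SPRR1A), chr1:153030953-153031202 (SPRR1B), chr1:153001499-153001748 (SPRR3) and chr1:152970398-152970647 (SPRR4), all on the plus strand.
SPRR1A: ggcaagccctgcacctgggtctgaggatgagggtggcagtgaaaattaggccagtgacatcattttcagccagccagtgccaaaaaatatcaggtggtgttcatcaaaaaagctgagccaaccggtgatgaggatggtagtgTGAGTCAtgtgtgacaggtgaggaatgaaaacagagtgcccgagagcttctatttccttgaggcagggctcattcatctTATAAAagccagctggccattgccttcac
SPRR1B: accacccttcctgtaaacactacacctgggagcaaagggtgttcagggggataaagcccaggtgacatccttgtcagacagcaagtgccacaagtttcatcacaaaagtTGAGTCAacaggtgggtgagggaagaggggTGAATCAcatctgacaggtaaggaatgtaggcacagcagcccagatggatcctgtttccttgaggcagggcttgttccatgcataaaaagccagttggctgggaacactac
SPRR3: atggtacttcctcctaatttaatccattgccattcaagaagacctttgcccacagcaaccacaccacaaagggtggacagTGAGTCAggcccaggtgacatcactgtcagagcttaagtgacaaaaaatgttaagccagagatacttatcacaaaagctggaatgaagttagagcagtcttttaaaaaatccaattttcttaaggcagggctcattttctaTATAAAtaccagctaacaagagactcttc
SPRR4: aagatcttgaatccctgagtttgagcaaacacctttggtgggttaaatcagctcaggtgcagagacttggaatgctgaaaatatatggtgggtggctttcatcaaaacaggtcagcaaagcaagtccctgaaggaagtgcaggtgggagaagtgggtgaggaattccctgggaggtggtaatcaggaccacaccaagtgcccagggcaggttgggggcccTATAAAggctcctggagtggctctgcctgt
The AP-1 letters begin at position -108 from the start in SPRR1A, at -141 and -111 in SPRR1B, and at -170 in SPRR3. They also begin at -197 in SPRR2A, -196 in SPRR2F and -180 in SPRR2G. The windows of SPRR4 and SPRR2B hold none. TATAAA begins at -29 or -30 in every window but that of SPRR1B. The ETS letters CAGGAA were found in 3 of the 8 windows (SPRR1B, SPRR2A and SPRR2B) and in 24.1% of all promoters, the KLF and Sp letters CACCC in 6 of 8 and in 54.7%, and the SOX letters CATTGT in SPRR2A alone and in 9.29%. In SPRR1B, a CACCC match on the minus strand, from -114 to -110, overlaps the AP-1 match at -111. These matches describe letters and are not binding sites.

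The 10 genes span 180.2 kb of chromosome 1, with SPRR4, SPRR1A, SPRR3 and SPRR1B on the plus strand and the SPRR2 genes on the minus strand. The 3 non-members annotated between the outermost genes, among them the pseudogene SPRR2C, had at most 7 reads in a library. SPRR4 lies at 1 end, beside SPRR1A, with values in Cl1 of -0.01 for SPRR4 and 1.14 for SPRR1A, a difference between genes that was not tested. SPRR2D and SPRR2E lie on either side of SPRR2A and SPRR2B. Of the other tested genes within 1000 kb of the cluster, 12 of 48 were called higher and 1 lower in Cl1 (median log2 fold change 0.38), and 15 of 49 higher and 1 lower in Cl10 (median 0.23). For Cl10 against Cl1, 7 of 48 were called higher and 3 lower (median -0.20). Over all genes the medians were -0.01, -0.01 and -0.0012, with 4.27%, 5.98% and 4.47% called higher and 3.27%, 7.44% and 6.28% lower. The same shares stand beside the list counts below. Most neighbours called higher against control are genes of the epidermal differentiation complex, counted again in the list below. TCHHL1 in Cl1, and RPTN and C1orf68 in Cl10, with at most 1 read in a control library, entered the fit through the clone libraries alone. So did S100A12 in Cl1, with 5 and 6 control reads. In Cl10 this also held for CRCT1, with 8 and 5, and LINC01527, with 5 and 2. The neighbour counts therefore carry no weight as a share.

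**Figure D4:**
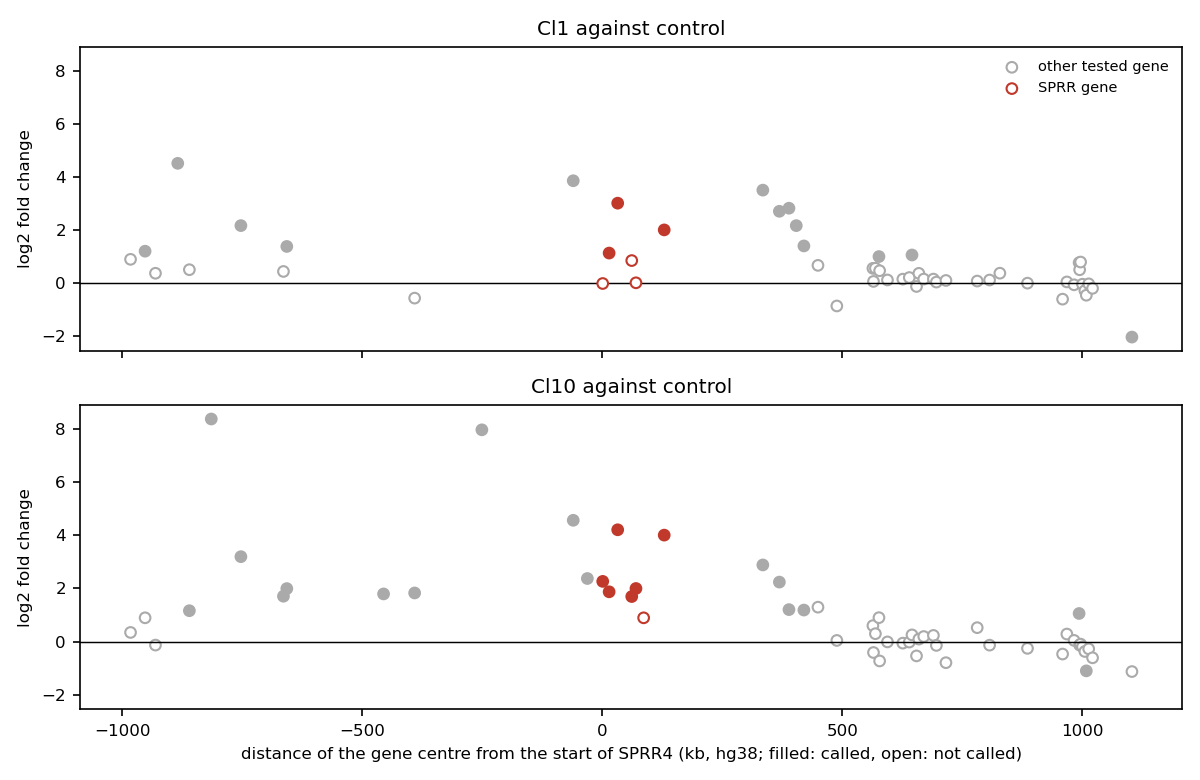
Log2 fold change against control (vertical axis) of tested genes by distance of the gene centre from the start of SPRR4 in kb (horizontal axis), for Cl1 above and Cl10 below; red circles are SPRR genes, grey circles are other genes, and filled circles were called. Called genes occur on both sides of the SPRR genes. Of the neighbours, 12 of 48 in Cl1 and 15 of 49 in Cl10 were called higher, against 4.27% and 5.98% of all genes. Some of them entered the fit through the clone libraries alone.

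Some other genes of the epidermal differentiation complex, IVL among them, were also higher in the clones. Of 37 such genes in the table, 12 were tested in Cl1, where 9 were called higher and none lower (median log2 fold change 2.17), and LCE3D and S100A7 had values of -0.56 and -0.85 that did not pass. In Cl10, 11 were tested and 10 called higher, with none lower (median 1.99, also with RPTN, at 0 reads in the control, set to its bound of at least 14.3-fold higher against 3 reads per library). The other genes of the 37 had too few reads. TCHHL1 in Cl1 and RPTN in Cl10, with at most 1 read in a control library, entered the fit through the clone libraries alone. So did S100A12 in Cl1, with 5 and 6 control reads. These shares and medians therefore carry no weight as a statement on the complex. There were 7 genes called higher in both clones. IVL, the gene of involucrin to which SPRR proteins are cross-linked, had 21.2 and 31.2 normalised counts in the control, 344.9 and 406.4 in Cl1, and 590.5 and 625.7 in Cl10. IVL rose by 3.86 on the log2 scale in Cl1 (SE 0.23, adjusted p = 3.74e-07) and by 4.56 in Cl10 (SE 0.19, adjusted p = 2.85e-05), and like SPRR1A and SPRR1B it was higher in Cl10 than in Cl1 (0.70, adjusted p = 0.000253). PGLYRP3 and PGLYRP4, peptidoglycan recognition proteins of epithelia, also rose in both clones, by 3.51 and 2.71 in Cl1 and by 2.88 and 2.24 in Cl10. Between the clones, 3 of 11 genes were called higher in Cl10 and 2 lower. These 5, named after their values were seen, are HRNR, RPTN and LCE3D on the higher side and S100A9 and S100A12 on the lower.

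Of 12 genes that cross-link or scaffold the envelope, all tested in Cl1, 1 was called higher and none lower (median 0.58), and of 10 tested in Cl10, 3 were called higher and none lower (median 0.16). TGM5, a transglutaminase of the upper epidermis, was the gene called higher in both clones, at 2.89 in Cl1 (adjusted p = 0.000127) and 1.72 in Cl10 (adjusted p = 0.0149). TGM1, the membrane-anchored transglutaminase that cross-links SPRR proteins, passed the p threshold in opposite directions, at 0.60 in Cl1 (adjusted p = 0.00917) and -0.83 in Cl10 (adjusted p = 0.00589). Its normalised counts were 588.8 and 465.5 in the control, 805.1 and 790.6 in Cl1, and 322.2 and 266.8 in Cl10, so that TGM1 was lowest where the SPRR genes were highest. The difference between the clones was -1.43 (SE 0.11, adjusted p = 6.67e-07). Also called in Cl10 were PI3 and SLPI, protease inhibitors, named after their values were seen. For Cl10 against Cl1, 2 of 11 were called higher (PI3 and SLPI) and 2 lower (TGM1 and TGM5), with a median of -0.04.

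Among factors known to act on SPRR promoters, 6 of 25 tested genes were called higher in Cl1 and none lower (median 0.16), and 3 of 25 in Cl10 with none lower (median -0.05). For Cl10 against Cl1, none was called higher and 4 were called lower (median -0.12). With both clones against the control, FOS and MAF were the genes called higher in each. FOS, a subunit of AP-1, rose by 2.66 in Cl1 (SE 0.16, adjusted p = 4.63e-07) and by 1.15 in Cl10 (SE 0.14, adjusted p = 0.000992), and the value of Cl10 against Cl1 was -1.51 (adjusted p = 7.62e-07), opposite to the SPRR genes. MAF, a factor of late epidermal differentiation, rose by 2.17 and 1.84. JUN, the partner of FOS, had 1784 and 1820 normalised counts in the control, 2311 and 2145 in Cl1, and 3981 and 4308 in Cl10. JUN did not pass in Cl1 (0.31, adjusted p = 0.052), rose in Cl10 (1.21, adjusted p = 0.000125) and passed the p threshold between the clones (0.90, adjusted p = 4.01e-07). FOSL1, another AP-1 subunit, passed the p threshold below the control in Cl1 (-0.62, adjusted p = 0.00371) and above it in Cl10 (0.31, adjusted p = 0.015). ELF3, an epithelial ETS factor, was at 0.36 in Cl1 (adjusted p = 0.0374) and -0.33 in Cl10 (adjusted p = 0.0274), and KLF4 did not pass in either (-0.13, adjusted p = 0.415, and -0.18, adjusted p = 0.145).

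The genes whose profile over the 6 libraries came closest to the most abundant SPRR genes were found by the distance between log2 CPM values centred on each gene's mean, among 14890 genes with a mean of at least 1 CPM. For SPRR1B they were EN1, CCDC149 and TMEM125, at distances of 0.218, 0.219 and 0.230. For SPRR1A they were FAM83A, MRAS and XAF1, at 0.217, 0.258 and 0.299. For SPRR4, which was level in Cl1 and high in Cl10, they were RIMBP2, DOK3 and STS, at 0.394, 0.422 and 0.455. The distances are descriptions of 6 libraries that share their groups.

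Markers of other cell types were compared between the groups. The summed levels of 6 fibroblast markers were 44.3 to 49.8 CPM in the control, 45.7 to 48.7 in Cl1 and 29.8 to 31.5 in Cl10, nearly all from COL1A1 and COL3A1, with LUM at 0 in all libraries and COL1A2 at 2 reads or fewer. The 5 leukocyte markers summed to 6.66 to 7.72 CPM in the control, 10.5 to 14.1 in Cl1 and 9.25 to 10.3 in Cl10, nearly all from CD14, with PTPRC at 14 reads or fewer. The 3 endothelial markers summed to 2.73 to 4.41, 5.68 to 7.76 and 3.20 to 4.15 CPM, nearly all from VWF, with PECAM1 at 2 reads or fewer. The 3 melanocyte markers summed to 5.12 to 5.15, 5.53 to 5.70 and 2.37 to 2.49 CPM, mostly from PMEL, with TYR at 0 in all libraries. MLANA went the other way, at 0.563 and 0.561 CPM in Cl10 and at most 0.504 in the control and Cl1 libraries. The sums of the fibroblast and melanocyte lists, set mostly by COL1A1, COL3A1 and PMEL, were lowest in Cl10, where the SPRR genes were highest. Their part in the SPRR values was not tested.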

How the data were processed

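Poly(A)-selected, paired-end libraries of A253 control, Cl1 and Cl10 cells were sequenced, and the authors used HISAT2 for alignment to hg38 and HTSeq for counting reads per gene. The submitters' processing notes name StringTie in place of HTSeq, and their labels a stranded mRNA kit where the methods name TruSeq, and this conflict was not resolved. The deposited values are raw counts, without normalization. Whether counting used strand, and its rule for reads that match several genes, are not given in the sources used here.

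Each comparison was fitted on its own libraries with edgeR 4.0.16 in R 4.3.3 (filterByExpr, TMM factors, glmQLFit and glmQLFTest), with Benjamini-Hochberg adjustment over all genes tested. The call rule was an adjusted p below 0.05 together with a log2 fold change beyond 1 in either direction. Normalised counts are TMM-scaled CPM times the mean library total. Counts were simulated with 200 changed genes. The fit called 199 of them for Cl1 against control, 200 for Cl10 against control and 199 for Cl10 against Cl1. These fits held 19945, 19695 and 19644 genes, and 4, 5 and 6 unchanged genes were called. Every changed gene had the same size of change, beyond the call threshold. These genes were drawn only from genes above a minimum mean count. Recovery was thus not measured for smaller changes or for genes below that count. It therefore does not show how well small changes, or genes with few reads such as SPRR3, SPRR2D and SPRR2E, are called. The 2 libraries of a group were no copies of each other: 23.6% to 58.5% of genes with at least 100 reads differed at p under 0.05 in a chi-square test of counting noise. That test scaled libraries by their totals alone, without TMM factors, so these shares also hold any difference in scaling. Alternatives were DESeq2 1.42.0, other size factors, filters and thresholds, a replicate block, 1 fit over 6 libraries, leaving out each library, and a local median as offset.

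Named genes were the 10 SPRR genes, DUSP1, from each list up to 3 genes called in 1 direction in both clones, ranked by the smaller of their changes, and IVL, TGM1, KLF4, ELF3, FOSL1 and JUN. Likeness used log2(CPM + 0.1). The SPRR genes and the lists were chosen with earlier results of these data known. Transcripts were from GENCODE v44, and promoter windows from RefSeq.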

Additional observations from a re-analysis of the deposited data

Results flagged for a closer look

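The clones differed in the same SPRR genes when Cl10 was compared with Cl1 directly, by edgeR's quasi-likelihood test with adjustment over all genes. The log2 difference, Cl10 over Cl1, was 2.26 for SPRR4, 1.97 for SPRR2D, 2.0 for SPRR2E, 1.19 for SPRR3, 0.84 for SPRR1B and 0.73 for SPRR1A. For all 6 genes both Cl10 libraries were above both Cl1 libraries, as they were for 37.5% of all 19818 genes tested (4.47% of which were called higher). The 6 were picked by an adjusted p under 0.05 in this comparison, so the separation was nearly given by the choice and is no support. SPRR2D, with 15 and 6 reads in Cl1, could enter only with the help of the Cl10 libraries. SPRR4 and SPRR2D had Cl1 values overlapping the control. With 1 clone for each, a difference between clones and a difference in how the deletion acts cannot be told apart.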

How the results depend on the processing

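The number of SPRR genes called higher was 3 in Cl1, 6 in Cl10 and 4 in Cl10 against Cl1. It was 2 to 4, 6 in each, and 3 to 6 under the alternatives run, with the highest values where no fold threshold was set. With DESeq2, 2 were called in Cl1, where SPRR2E had no adjusted p. Without a fold threshold, 2489, 4103 and 4932 of all genes were higher, in place of 861, 1188 and 886. Leaving out 1 library gave 695 to 1094, 1062 to 1474 and 791 to 926. With a replicate block, 3, 6 and 4 SPRR genes were called, and 904, 1287 and 894 of all genes. The replicate numbers did not pair the libraries (correlations of deviations -0.07, -0.02 and 0.01 over 20582 genes).

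Signs turned for the genes near 0 in Cl1. SPRR2D was at 0.02, and at -0.055 with library totals alone, -0.0073 without a filter, -0.52 to 0.59 as 1 library was left out (-0.45 without control replicate 1, -0.52 without Cl1 replicate 1) and -0.35 against the local median. SPRR4 was at -0.01, and at 0.0042 with DESeq2 size factors, -0.32 to 0.23 as 1 library was left out (0.15 without control replicate 2, 0.23 without Cl1 replicate 2). SPRR1B was called at 1.04 in Cl1 without control replicate 2, and at 1.06 in Cl10 against Cl1 with the local median as offset. SPRR2A in Cl10 ranged from 0.10 to 1.73 as 1 library was left out, from 6 to 21 reads. For these single genes the cause was not tested. Over the single SPRR genes, 211 values kept direction and side of the threshold, 8 changed sign, 5 lost the call and 2 gained it. Fits in which a gene had no adjusted p were left out of these counts. With so few reads, depth limits SPRR2A, SPRR2B, SPRR2F and SPRR2G.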
